A study of Homo sapiens with 6 samples.

Results

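The 10 genes described here build, divide and proofread the mitochondrial network: the fusion factors MFN1, MFN2, OPA1, MIGA1 and MIGA2, the fission factors DNM1L, FIS1 and MFF, and the inner-membrane proteases OMA1 and YME1L1. They were followed through every probe set of the array that the annotation assigns to 1 of these genes and to no other gene, which gave 42 of the 41091 probe sets that name 1 gene, and 10 of 19777 genes. All 10 genes had at least 1 such probe set, and no intensity filter was applied. The list was chosen from the values of this same comparison, in which the lower level of MIGA1 had been seen, so the values below are a description and the calls are no independent test of these genes. MIGA1 and MIGA2 appear under those names after older symbols were updated.

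Messenger RNA was measured in MDA-MB-231 cells, a widely used line of human breast cancer cells with a mesenchymal character and no estrogen receptor. The groups were 3 samples transfected with an ING2-targeting siRNA, siRNA #116981, and 3 samples transfected with a non-targeting siRNA, each hybridised to 1 array. The labels name Dharmafect 1 as the transfection reagent and differ on the time of RNA collection, 4 days after transfection by the treatment text and 3 days by the extraction text. Only 1 ING2 siRNA was used, so effects of that siRNA on other transcripts cannot be told apart from effects of ING2 loss. Whether the replicates were separate cultures is not stated, and the p-values therefore reflect sample-to-sample spread that could be technical.

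Mitochondria fuse and divide continually. MFN1 and MFN2 are GTPases that join the outer membranes, and OPA1 is the GTPase that joins the inner membranes and shapes the cristae. MIGA1 and MIGA2 are outer-membrane mitoguardins that promote fusion through a mitochondrial phospholipase. DNM1L, also called DRP1, is the cytosolic GTPase that constricts the organelle, and MFF and FIS1 sit in the outer membrane, where MFF recruits DNM1L. OMA1 and YME1L1 cut OPA1 at different sites, and the balance of long and short OPA1 sets how readily inner membranes fuse. ING2, the gene targeted here, encodes a PHD finger subunit of a SIN3 histone deacetylase complex.

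Promoter windows of the paralogue pairs MIGA1 and MIGA2, and MFN1 and MFN2, are shown first, because in each pair limma called at least 1 probe set of 1 gene lower (both of MIGA1 and 1 of 3 of MFN1) and called none of the other. The windows are from RefSeq on build GRCh38.p14, run from 250 bases before to 50 bases after the annotated start, and are written 5′ to 3′ on the strand of the gene, which is the plus strand for all 4. They lie at chr1:77779399-77779698 for MIGA1, chr9:129036376-129036675 for MIGA2, chr3:179347459-179347758 for MFN1 and chr1:11980194-11980493 for MFN2. Capitals mark matches to the core of the ETS family motif (CCGGAAG) and to the YY1 motif (AANATGGC), searched on both strands.
MIGA1: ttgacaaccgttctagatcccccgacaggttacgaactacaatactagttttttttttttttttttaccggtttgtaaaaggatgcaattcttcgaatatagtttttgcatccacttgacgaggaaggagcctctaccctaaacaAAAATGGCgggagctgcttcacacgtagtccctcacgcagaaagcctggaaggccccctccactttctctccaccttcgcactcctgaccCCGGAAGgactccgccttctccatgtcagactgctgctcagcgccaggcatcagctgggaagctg
MIGA2: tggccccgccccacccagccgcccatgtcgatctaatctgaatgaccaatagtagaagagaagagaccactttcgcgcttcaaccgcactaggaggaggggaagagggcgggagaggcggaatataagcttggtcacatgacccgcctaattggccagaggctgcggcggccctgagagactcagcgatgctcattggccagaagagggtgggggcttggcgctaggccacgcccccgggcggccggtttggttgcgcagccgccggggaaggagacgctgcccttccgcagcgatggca
MFN1: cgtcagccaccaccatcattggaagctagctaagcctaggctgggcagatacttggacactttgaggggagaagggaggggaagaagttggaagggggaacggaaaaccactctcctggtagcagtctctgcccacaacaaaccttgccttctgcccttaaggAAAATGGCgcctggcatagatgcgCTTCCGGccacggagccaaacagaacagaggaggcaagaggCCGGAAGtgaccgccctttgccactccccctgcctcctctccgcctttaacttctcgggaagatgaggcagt
MFN2: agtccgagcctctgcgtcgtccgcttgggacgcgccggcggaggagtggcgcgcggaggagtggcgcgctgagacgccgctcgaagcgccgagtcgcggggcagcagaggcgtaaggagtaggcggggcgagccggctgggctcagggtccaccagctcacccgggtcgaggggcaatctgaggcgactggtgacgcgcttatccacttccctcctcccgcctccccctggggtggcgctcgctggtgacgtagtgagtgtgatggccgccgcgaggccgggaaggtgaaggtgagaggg
The MIGA1 window held 1 YY1 match and 1 ETS match, the MFN1 window held 1 YY1 match and 2 ETS matches, and neither motif was found in the windows shown for MIGA2 and MFN2. A second RefSeq window of MIGA2, not shown, also held neither. Among the 35116 RefSeq windows of the same length, 10.3% held the ETS core and 6.58% held the YY1 motif. Of the 9 members with a window, 3 held the ETS core (MFN1, MIGA1 and FIS1) and 2 held the YY1 motif. In the OPA1 window the core of the NRF1 motif (GCATGCGC) matched at 2 overlapping positions, against 3.05% of all windows with a match. The CCAAT box (CCAAT) was found for 5 members and the GC box (GGGCGG) for 7, with 34.6% and 45.0% of all windows holding them. The 9 members had 12 windows, and a member was counted where any of its windows held the motif. The shares are of single windows, so the counts of members and these shares are not like for like. The motifs were picked after the sequences and values were seen, no motif match overlapped a match of another motif in the windows shown, and a match is a stretch of letters, not a shown binding site.

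The values are array intensities in linear units, compared on the log2 scale with limma across all 54613 probe sets that are not array controls. A probe set is called lower or higher where its Benjamini-Hochberg adjusted p over all of them was under 0.05. Medians of the arrays lay between 78.4 and 81.5 units after ING2 siRNA and between 75.7 and 77.2 units in controls. With 3 arrays a group, precision is limited by their number. The siRNA target itself was checked first. ING2 probe set 205981_s_at read 163, 188 and 161 units after ING2 siRNA, against 1400, 1349 and 1324 units in controls, 12.5% of the control level. A dimmer ING2 probe set, 213544_at, stood at 36.5% of control. Of the line's markers VIM, CD44, AXL and CAV1, each lay at or above percentile 97.9 of all probe sets by intensity, while the 5 luminal breast markers ranged from PGR at percentile 10.9 and ESR1, the estrogen receptor gene, at 58.0 to KRT8 at 98.8. The 4 measured blood markers ranged from PTPRC at percentile 15.7 to HBB at 63.2. Fibroblast markers summed to 916 to 924 units after ING2 siRNA and 879 to 996 units in controls, with DCN called higher and LUM called lower, and blood markers summed to 339 to 342 units after ING2 siRNA and 303 to 329 units in controls. The part of these markers in the results below was not tested.

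Across the table, dim probe sets read higher and bright probe sets read lower after ING2 siRNA. With all probe sets in 10 equal classes by mean intensity, the median log2 change ran between 0.12 in class 3 from the dimmest and -0.10 in the brightest class. The 3′ over 5′ log2 ratio of the array's GAPDH controls, which moves with RNA integrity, was 0.269, 0.327 and 0.352 after ING2 siRNA and 0.193, 0.200 and 0.222 in controls, with no overlap. The same ratio of the ACTB controls was 0.488, 0.652 and 0.483 after ING2 siRNA and 0.366, 0.526 and 0.578 in controls, where the groups overlapped. The part of RNA integrity and of the intensity trend in the members' values was not tested. The brightest probe set of each member is therefore also set beside the median of its intensity class. For the brightest probe sets that median was -0.07 for MFN1 and -0.02 for MIGA1, MIGA2 and OMA1. It was -0.10 for MFN2, OPA1, DNM1L, FIS1, MFF and YME1L1.

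Among the 42 member probe sets, 4 were called lower and 0 higher by limma, and 15 were lower and 6 higher at an unadjusted p under 0.05. The 4 were both MIGA1 probe sets, 1 of 3 MFN1 probe sets and 1 of 20 YME1L1 probe sets. Of all 54613 probe sets, 3.64% were called lower and 1.64% higher. The comparison chose the list, so nothing is read from that count. The share of all probe sets at an unadjusted p under 0.05 was not counted. Nothing is read from the unadjusted counts either, here or in the lists below. The groups did not overlap in 26 member probe sets, 15 lower and 11 higher, against 12.3% lower and 20.5% higher over the whole table. On the brightest probe set of each gene the median log2 change was -0.20 over the 10 members and 0.06 over all 19777 genes, and 8 of the 10 values lay below 0, against 38.3% of genes. All 10 probe sets lay at or above percentile 72.0 of intensity, and relative to the medians of their intensity classes the member median was -0.10, with 7 of the 10 below their class. Of these 10 probe sets 1, that of MIGA1, was called lower and 0 higher, with 5 lower and 0 higher at an unadjusted p under 0.05. In a culture sampled as a whole, fewer cells carrying a transcript and less of the transcript per cell cannot be told apart.

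**Figure D1:**
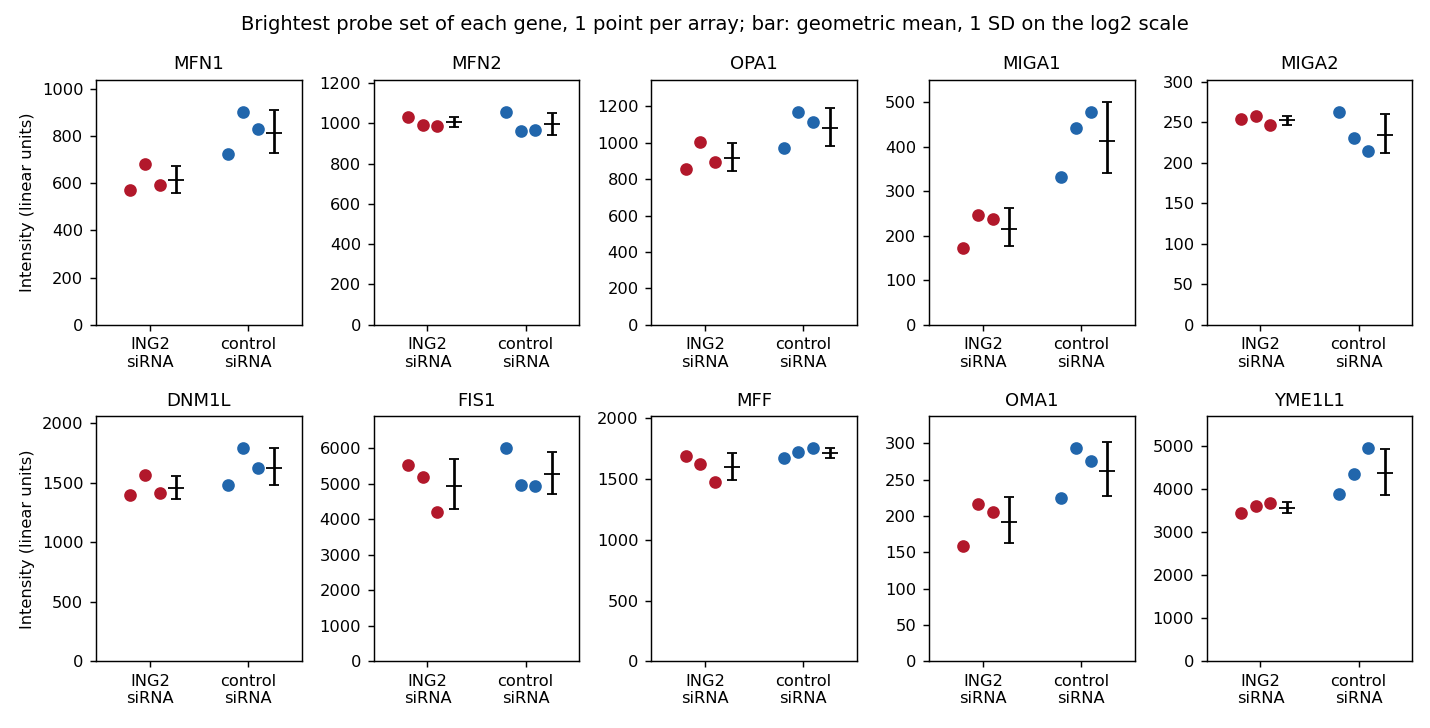
Intensity in linear units of the brightest probe set of each of the 10 genes, with 1 point per array (ING2 siRNA in red on the left, control siRNA in blue on the right) and the geometric mean with 1 SD on the log2 scale beside them. The groups do not overlap for MFN1, MIGA1, OMA1 and YME1L1, all in the lower direction, and they overlap for the other 6 genes. Of all probe sets at or above the median intensity, where these 10 lie, 21.0% stood apart in the lower direction and 18.4% in the higher.

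The fusion factors were read gene by gene. MIGA1 showed the lowest values of all members relative to control. Its brighter probe set, 235125_x_at, read 172, 245 and 238 units after ING2 siRNA, against 333, 443 and 478 units in controls. Every ING2 siRNA array lay below every control array, and the highest ING2 siRNA value was 87.1 units below the lowest control value. The level was 52.2% of control, with a log2 change of -0.94 (SE 0.17, from 3 arrays a group), which placed it at rank 104 from the lowest of 54613. The median of its intensity class was -0.02. The second MIGA1 probe set, 243042_at, read 156, 214 and 146 units after ING2 siRNA, against 246, 314 and 319 units in controls, again without overlap. It stood at 58.3% of control (log2 change -0.78, SE 0.15), so the gene's 2 probe sets gave the same direction. By the array's naming convention, the suffix of the brighter probe set marks probes that may bind other transcripts, and the dimmer one carries no such suffix. Both were called lower on the deposited values and after median centring, quantile normalization and cyclic loess. When 1 array was left out, each passed in 2 of 6 fits (limma adjusted p 0.0107 to 0.0746 for 235125_x_at and 0.0157 to 0.121 for 243042_at, by Benjamini-Hochberg), and the 235125_x_at change ranged from -1.09 to -0.77. It missed the threshold without ING2 siRNA replicate 1 (adjusted p = 0.0617) or 3 (0.0746), and without control replicate 2 (0.0708) or 3 (0.0738).

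Its paralogue MIGA2 was measured by 1 probe set and was not called. Intensities were 254, 257 and 247 units after ING2 siRNA, against 263, 230 and 214 units in controls. The groups overlapped, and the log2 change was 0.10 with a 95% interval half-width of 0.22. The difference between the changes of MIGA1 and MIGA2 was not tested.

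The outer-membrane fusion GTPase MFN1 had 3 probe sets, and in each the groups stood apart in the lower direction. So did 21.0% of all probe sets at or above the median intensity, where all 3 lay. The brightest, 207098_s_at, read 574, 682 and 593 units after ING2 siRNA, against 724, 904 and 828 units in controls. Its level was 75.4% of control (log2 change -0.41, SE 0.11), and it was not among the calls. Probe set 217043_s_at read 599, 660 and 552 units after ING2 siRNA, against 777, 919 and 733 units in controls, or 74.7% of control. The dimmest, 211801_x_at, read 161, 165 and 150 units after ING2 siRNA, against 231, 257 and 222 units in controls. It stood at 67.1% of control (log2 change -0.58, SE 0.09) and was called lower, and its suffix too marks probes that may bind other transcripts. The same suffix is carried by the brightest probe sets of OPA1 and MFF, and by others of MFF and YME1L1. For the MFN1 probe sets, the medians of the intensity classes were -0.07 for the brighter pair and 0.06 for 211801_x_at. The 2 brighter probe sets passed after median centring but not after quantile normalization or cyclic loess (limma adjusted p = 0.106 and 0.0920 for 207098_s_at, by Benjamini-Hochberg), while 211801_x_at passed after all 3. Without 1 array, 211801_x_at passed in 4 of 6 fits, and 207098_s_at passed in 2.

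MFN2, the other mitofusin, did not pass the test on any of its 3 probe sets. Probe set 201155_s_at read 1033, 993 and 988 units after ING2 siRNA, against 1058, 963 and 968 units in controls. The groups overlapped, and the log2 change was 0.01 with a 95% interval half-width of 0.19, turning to -0.06 after median centring. The dimmer MFN2 probe sets gave 0.08 for 1566105_at and 0.07 for 216205_s_at, both near the 0.10 of their intensity class. For 216205_s_at, values of 87.1, 91.3 and 92.9 units after ING2 siRNA lay just above those of 86.9, 86.9 and 84.6 units in controls. The difference between MFN1 and MFN2 was not tested.

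OPA1, the inner-membrane fusion GTPase, had 4 probe sets with log2 changes between -0.50 and -0.18, all below 0 and none among the calls. The brightest, 212213_x_at, read 858, 1005 and 897 units after ING2 siRNA, against 969, 1171 and 1116 units in controls. The groups overlapped in that probe set, and the level was 84.8% of control (log2 change -0.24, SE 0.10). In 212214_at the groups were apart, with 795, 860 and 792 units after ING2 siRNA, against 919, 1132 and 959 units in controls, or 81.6% of control. After quantile normalization the change of 212213_x_at was -0.12, and after cyclic loess -0.15. The lowest value came from the dim 241027_at, with 19.5, 25.5 and 22.2 units after ING2 siRNA, against 23.6, 38.5 and 34.6 units in controls, where the groups overlapped.

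**Figure D2:**
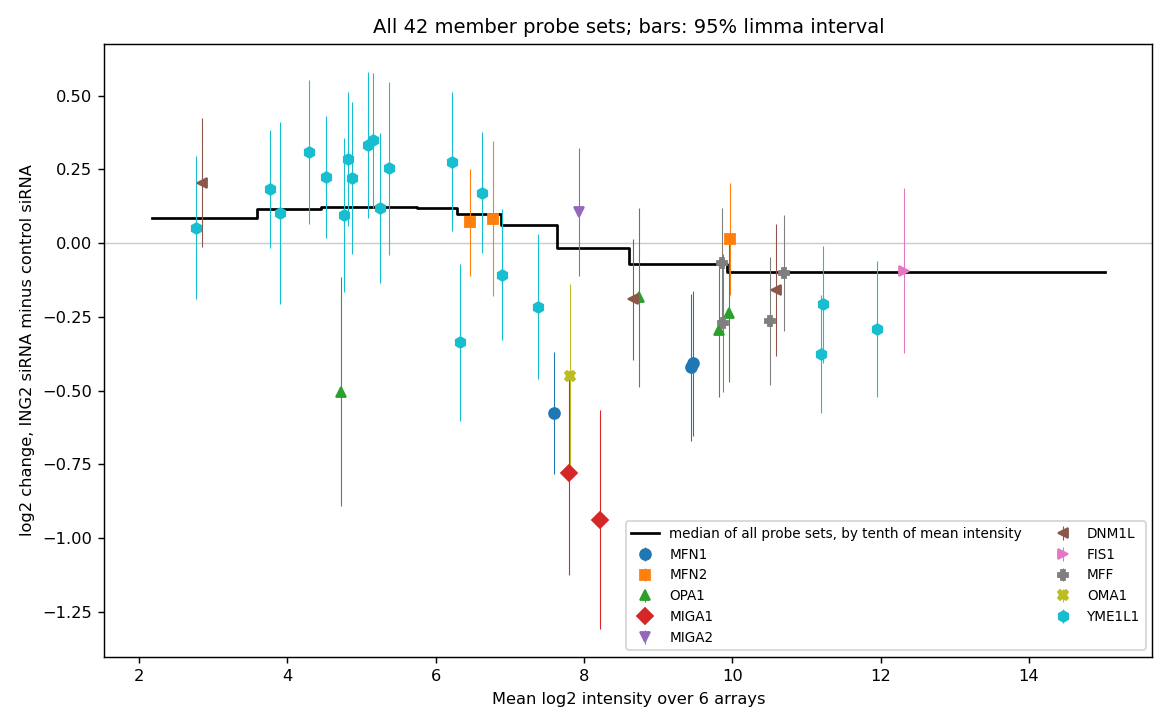
The log2 change (ING2 siRNA minus control siRNA) of all 42 member probe sets is plotted against mean log2 intensity over the 6 arrays, with bars for the 95% limma interval and a black line for the median of all probe sets in each of 10 intensity classes. Both MIGA1 probe sets (-0.94 and -0.78) and the 3 of MFN1 lie below the line, while most dim YME1L1 probe sets lie above 0, where the line also lies.

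No fission factor was called on any of its probe sets. DNM1L, the constricting GTPase, read 1395, 1567 and 1409 units on probe set 226154_at after ING2 siRNA, against 1477, 1788 and 1623 units in controls. These groups overlapped, and the log2 change was -0.16 with a 95% interval half-width of 0.22. Probe set 203105_s_at gave 398, 388 and 352 units after ING2 siRNA, against 409, 459 and 430 units in controls, or 87.7% of control without overlap. The dim DNM1L probe set 237797_at read between 7.23 and 8.62 units after ING2 siRNA and between 6.34 and 6.99 units in controls, at percentile 2.64 of intensity. After quantile normalization the change of 226154_at was -0.03, and after cyclic loess it was -0.06.

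MFF, the outer-membrane receptor for DNM1L, had 4 bright probe sets with log2 changes between -0.27 and -0.07, none of them called. The brightest, 223354_x_at, read 1691, 1627 and 1478 units after ING2 siRNA, against 1673, 1718 and 1751 units in controls. The groups overlapped there, at 93.1% of control, and the log2 change of -0.10 equalled the median of its intensity class to 2 decimals and turned to 0.02 after quantile normalization. In 222832_s_at they did not overlap, with 1430, 1398 and 1189 units after ING2 siRNA, against 1542, 1634 and 1629 units in controls, or 83.3% of control. The MFF probe sets ranged between 82.9% (219137_s_at) and 95.5% (223091_x_at) of control. FIS1, an outer-membrane protein tied to fission, had 1 probe set with 5520, 5196 and 4202 units after ING2 siRNA, against 5997, 4954 and 4926 units in controls. Its groups overlapped, and the log2 change of -0.09 (95% interval half-width 0.28) was 0.01 after quantile normalization and 0.02 after cyclic loess.

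Of the proteases that cut OPA1, 1 of 20 YME1L1 probe sets was called lower and the OMA1 probe set was not called. OMA1, the stress-activated metalloprotease, read 159, 217 and 206 units on 226019_at after ING2 siRNA, against 224, 293 and 276 units in controls. The groups did not overlap, although ING2 siRNA replicate 2 came within 7.68 units of control replicate 1. The level was 73.1% of control (log2 change -0.45, SE 0.14), against a class median of -0.02, and the probe set was not called. After median centring, quantile normalization and cyclic loess the change stayed between -0.52 and -0.42. A further probe set, 226020_s_at, is annotated to both OMA1 and DAB1 and is no member; it read 532, 510 and 532 units after ING2 siRNA, against 585, 720 and 601 units in controls, or 82.9% of control.

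YME1L1, the ATP-dependent protease of the inner membrane, carried 20 probe sets that differed widely in level. In 3 of them controls averaged over 1000 units, and in each of the 3 the groups stood apart in the lower direction. Of all probe sets at or above the median intensity, 21.0% stood apart in that direction. Probe set 201352_at read 3441, 3608 and 3689 units after ING2 siRNA, against 3891, 4355 and 4953 units in controls, or 81.7% of control (log2 change -0.29, SE 0.10). Probe set 201351_s_at read 2036, 2140 and 1986 units after ING2 siRNA, against 2454, 2791 and 2758 units in controls. It stood at 77.1% of control (log2 change -0.38, SE 0.09), and it was called lower on the deposited values but not after quantile normalization (limma adjusted p = 0.122) or cyclic loess (0.10). Without 1 array it passed in 1 of 6 fits (adjusted p 0.0296 to 0.149). The remaining bright one, 216304_x_at, read 2138, 2398 and 2113 units after ING2 siRNA, against 2472, 2620 and 2577 units in controls, or 86.6% of control.

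The other 17 YME1L1 probe sets were dimmer. Their control means lay between 6.69 and 180 units, and 14 of them had a value above 0, with a median of 0.18 and a range from -0.34 to 0.35. None was called. The groups stood apart in the higher direction in 9 of them and in the lower direction in 2, against 20.5% and 12.3% of all probe sets. Relative to the medians of their intensity classes the median change was 0.07, with 7 of the 17 below their class. The highest, 216540_at, read 41.3, 41.4 and 38.0 units after ING2 siRNA, against 28.0, 32.2 and 34.9 units in controls. The lowest, 232216_at, read 61.2, 78.7 and 76.4 units after ING2 siRNA, against 81.2, 97.2 and 93.7 units in controls. Whether these 17 probe sets measure the YME1L1 transcript was not tested. When all 20 were averaged, the log2 change of the gene was 0.07, the opposite sign to that of its bright probe sets.

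Brighter member probe sets lay below 0 more often than dim ones, and so did brighter probe sets across the table. Of the 27 at or above the median intensity, 22 had a value below 0, with a median of -0.22. Of the 15 below it, 1 had a value below 0, with a median of 0.22, and 13 of these 15 are YME1L1 probe sets. The medians of all probe sets in those classes were 0.00 (-0.0041 before rounding) and 0.11, with 50.7% and 24.4% of them below 0. Among probe sets at or above the median intensity, 4 of the 27 members were called lower, and 6.42% of all were. None of the 27 was called higher, against 1.25% of all. Of those 27, 15 had groups apart in the lower direction and 2 in the higher direction, against 21.0% and 18.4% of all. Below the median intensity 0 of the 15 members were called in either direction by limma, against 0.868% of all called lower and 2.04% called higher. There the groups stood apart in the higher direction for 9 members and in the lower direction for 0, against 22.6% and 3.56% of all.

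**Figure D3:**
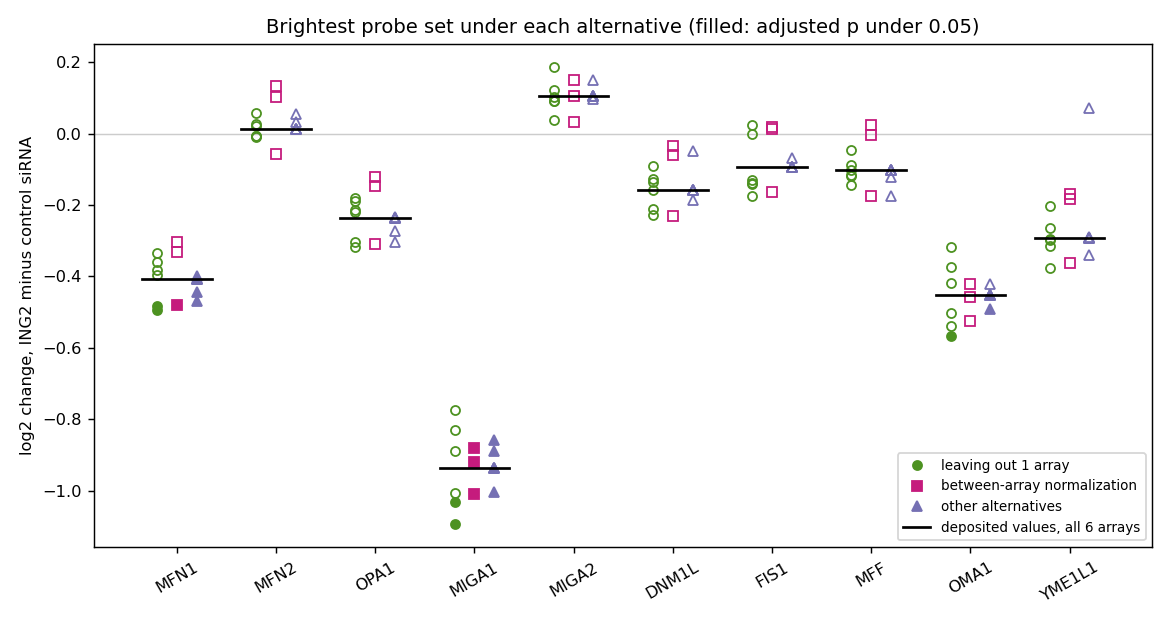
The log2 change (ING2 siRNA minus control siRNA) of the brightest probe set of each of the 10 genes on the deposited values (black bar), when 1 array was left out (green circles), under other normalizations (pink squares) and under the other alternatives (purple triangles). Filled symbols passed an adjusted p of 0.05. For each gene 1 triangle is the mean of all its probe sets rather than the brightest. MIGA1 stayed between -1.09 and -0.77, and MFN2, FIS1 and MFF have points on both sides of 0. The 1 YME1L1 point above 0 (0.07) is the mean of all its probe sets, and its other points lie below 0.

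By the shape of its 6 values, MIGA1 was closest to 5 genes. The measure was the Euclidean distance between log2 deviations from each gene's own mean over the 6 arrays, computed for 19775 genes on their brightest probe sets, with a median of 1.38. RNFT1 was nearest (0.169), followed by PCNX4 (0.191), SEC23A (0.194), a COPII coat component, ACTL6A (0.203), an actin-related subunit of chromatin remodelling complexes, and EDEM3 (0.217), which trims mannose from misfolded glycoproteins. RNFT1 read 60.7, 81.5 and 75.6 units after ING2 siRNA, against 115, 153 and 148 units in controls, a log2 change of -0.93, while its second probe set gave -0.16. SEC23A read 813, 1174 and 1014 units after ING2 siRNA, against 1549, 2014 and 1970 units in controls, a log2 change of -0.89. As in MIGA1 probe set 235125_x_at, replicate 1 held the lowest value within each group in both genes. The genes were picked by the likeness of these same 6 values, so nothing is read from that order. In the second MIGA1 probe set, 243042_at, ING2 siRNA replicate 3 (146 units) lay below replicate 1 (156 units). PCNX4 had 7 probe sets, of which 3 lay below 0, with a range from -0.86 to 0.33.

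Other genes of mitochondrial form and upkeep, in 7 lists covering 107 measured genes, were read on the brightest probe set of each. Of these genes 6 fell and 0 rose by limma (29 lower and 6 higher at an unadjusted p under 0.05), with a median log2 change of -0.06. That is 5.61% called lower, against 3.15% of all genes called lower and 1.79% called higher. However, 103 of the 107 lay at or above the median intensity, where 6.42% of all probe sets were called lower, and relative to the medians of their intensity classes their median change was 0.0064. The count of falls was 13 after median centring, 2 with 1 rise after quantile normalization and 4 after cyclic loess. It was 13 with dim probe sets left out, 10 with 1 probe set per gene, 14 with the mean of all probe sets, 14 with an intensity trend and robust eBayes, 15 with array weights and 10 with 16 added to each value, with 1 rise in each of these except the mean of probe sets, which gave 0. Leaving out 1 array changed the count of falls to between 0 and 9: it was 1 without ING2 siRNA replicate 1, 7 without ING2 siRNA replicate 2, 0 without ING2 siRNA replicate 3, 9 without control replicate 1, and 1 without control replicate 2 or 3.

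In the list of fission adaptors and regulators, 0 of 16 genes passed (2 lower and 1 higher at an unadjusted p under 0.05), with a median of -0.04. The smallest p-values belonged to the outer-membrane ubiquitin ligase genes MARCHF5 (log2 change -0.29, SE 0.08) and MUL1 (0.21, SE 0.08). Among 18 genes of fusion lipids and inner-membrane quality control, 2 fell and 0 rose (5 lower and 1 higher at an unadjusted p under 0.05), with a median of -0.04. IMMP1L, a subunit of the inner-membrane peptidase that trims imported proteins, read 737, 973 and 835 units after ING2 siRNA, against 1234, 1267 and 1417 units in controls (log2 change -0.63, SE 0.12, limma adjusted p = 0.0211). CLPX, the unfoldase partner of the matrix protease CLPP, read 287, 303 and 279 units after ING2 siRNA, against 350, 434 and 472 units in controls (log2 change -0.52, SE 0.12, limma adjusted p = 0.0375). Both genes stood apart between the groups, and CLPX missed the threshold after quantile normalization (limma adjusted p = 0.0598). Of 2 probe sets each, both of IMMP1L and 1 of CLPX were called lower, and the other CLPX probe set gave -0.25.

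The list of MICOS and cristae genes had 0 of 12 past the threshold (3 lower and 1 higher at an unadjusted p under 0.05), with a median of -0.14. Its smallest p-values were those of MTX2, an outer-membrane metaxin (log2 change -0.31, SE 0.09), and DNAJC11 (0.32, SE 0.09), which binds the MICOS complex. A second DNAJC11 probe set gave 0.14. Of 9 measured genes of mitochondrial transport, ARMCX1 fell and 0 rose (4 lower and 0 higher at an unadjusted p under 0.05), with a median of -0.16. ARMCX1, an outer-membrane protein known in mouse neurons for its part in mitochondrial transport, read 1087, 1310 and 1178 units after ING2 siRNA, against 1527, 1823 and 1883 units in controls (log2 change -0.55, SE 0.11, limma adjusted p = 0.0290). It missed the threshold after quantile normalization (limma adjusted p = 0.0534).

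In mitophagy, 1 of 14 measured genes fell and 0 rose (7 lower and 2 higher at an unadjusted p under 0.05), with a median of -0.15. The gene was FUNDC1, an outer-membrane mitophagy receptor, which read 985, 986 and 876 units after ING2 siRNA, against 1365, 1501 and 1695 units in controls (log2 change -0.68, SE 0.10, limma adjusted p = 0.0121). The groups did not overlap, and FUNDC1 passed in 5 of 6 fits without 1 array. Among 16 genes of mitochondrial biogenesis and mitochondrial DNA, 0 passed (4 lower and 1 higher at an unadjusted p under 0.05), with a median of -0.10. GABPA, the DNA-binding subunit of an ETS family factor, had the smallest p-value there (log2 change -0.65, SE 0.17), followed by SSBP1, which binds single-stranded mitochondrial DNA (-0.36, SE 0.11). The second GABPA probe set gave -0.18, and the 3 SSBP1 probe sets ran from -0.36 to 0.07.

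Of 22 measured protein import genes, 2 fell and 0 rose (4 lower and 0 higher at an unadjusted p under 0.05), with a median of -0.02. TIMM21, a subunit of the TIM23 translocase, read 691, 689 and 632 units after ING2 siRNA, against 867, 888 and 923 units in controls (log2 change -0.41, SE 0.09, limma adjusted p = 0.0303). HSPE1, the co-chaperonin of the matrix, read 2283, 2289 and 2211 units after ING2 siRNA, against 2793, 2756 and 3119 units in controls (log2 change -0.35, SE 0.09, limma adjusted p = 0.0494). Neither passed after cyclic loess (limma adjusted p = 0.0576 for TIMM21 and 0.138 for HSPE1). Without 1 array, HSPE1 passed in 0 of 6 fits, and IMMP1L, CLPX, ARMCX1 and TIMM21 passed in 2 of 6 each.

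**Figure D4:**
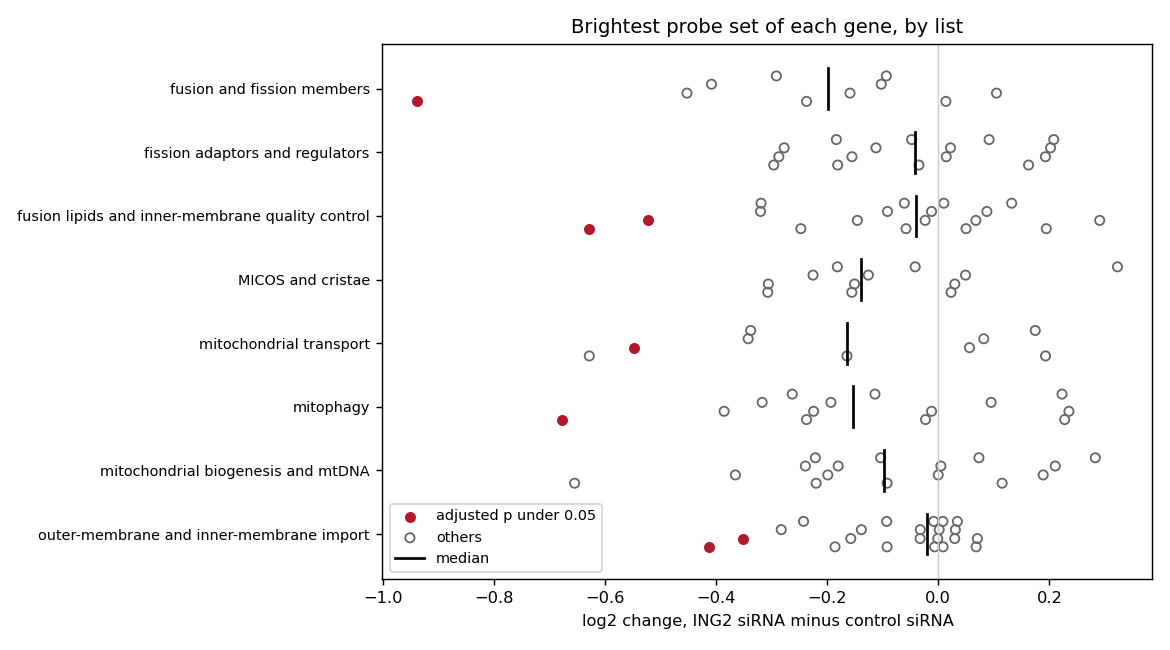
The log2 change (ING2 siRNA minus control siRNA) of the brightest probe set of each gene in the 10 fusion and fission members and in 7 other mitochondrial lists, with filled red points for an adjusted p under 0.05 and a bar for the median. The member median is -0.20 and the lowest point is MIGA1 at -0.94, while the other list medians lie between -0.16 and -0.02.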

How the data were processed

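RNA of 6 MDA-MB-231 samples (3 ING2 siRNA, 3 control siRNA) was hybridised to 1-colour arrays, 1 per sample. The values the authors deposited are linear intensities of probe sets. The submitters' processing notes name RMA and R 2.12; how the values were brought to a linear scale is not given. The table held 54675 probe sets; 62 array controls were left out, 41091 named 1 gene, 1801 several and 11721 none, by a platform annotation of 2016. Symbols were updated by gene identifier from RefSeq (GRCh38.p14) (19735 of 19777 identifiers matched).

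The log2 of each value was fitted with limma 3.58.1 (lmFit, eBayes; R 4.3.3), ING2 siRNA minus control, without covariate or pseudocount, with Benjamini-Hochberg adjustment over all 54613 probe sets. The adjusted p-values, standard errors and 95% intervals are from that fit. A gene is represented by the brightest of its probe sets on average over the arrays. The fit was tested on simulated data. All 10 members are named; a list names up to 3 rises and 3 falls past the threshold or, with none, the 2 smallest p-values. The members and lists were chosen with earlier results of these data known, and the YME1L1 split at 1000 units and the motifs after values were seen. No pair of arrays held identical values. Alternatives were between-array normalization, an intensity filter, gene-level units, variance model, array weights, the replicate block, an added constant of 16, a threshold of 0.01 and leaving out each array.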

Additional observations from a re-analysis of the deposited data

How the results depend on the processing

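ING2 and MIGA1 kept their direction under every alternative tried, ING2 between -3.07 and -2.22 and MIGA1 between -1.09 and -0.77 on the log2 scale. ING2 passed the threshold in each of them, and MIGA1 failed it in 4 of the 6 fits without 1 array and at a threshold of 0.01. All 6 of these fits held fewer arrays, and why MIGA1 failed in 4 of them was not tested. Over the 6 fits without 1 array ING2 ranged from -3.07 to -2.96 and MIGA1 from -1.09 to -0.77. Member probe sets called lower numbered 4, and 6 after median centring, 3 after quantile normalization and 3 after cyclic loess. The number was 6 with dim probe sets left out, 2 with 1 probe set per gene and 3 with the mean of probe sets. It was 6 with an intensity trend and robust eBayes, 8 with array weights, 9 with the replicate block and 4 with 16 added to each value. At a threshold of 0.01 it was 0, and without 1 array it was 0 to 7. It was 1 without ING2 siRNA replicate 1, 5 without replicate 2 and 0 without replicate 3. For the controls it was 7 without replicate 1, 0 without replicate 2 and 1 without replicate 3. None was called higher under any alternative. Among all probe sets, 897 were called higher and 1989 lower. The numbers were 279 and 2927 after median centring, 564 and 1415 after quantile normalization, 308 and 1720 after cyclic loess, 716 and 924 with 1 probe set per gene, 2435 and 3613 with array weights, 1414 and 3135 with the replicate block, and 3 and 273 at a threshold of 0.01. Without 1 array they ran from 8 to 1266 higher and from 210 to 2956 lower. Same-numbered arrays deviated from their group means with correlations of 0.155, 0.201 and 0.0081, not all over 0.1, and not every array correlated best with its own number, so the numbers were not taken as pairs and the counts with the replicate block are no measure of a stronger effect. Single members turned sign as follows. MFN2 was -0.0578 after median centring, and without 1 array it ran from -0.0103 (without control replicate 2) to 0.0576. FIS1 was 0.0128 after quantile normalization and 0.0187 after cyclic loess, and leaving out 1 array gave -0.174 to 0.0233, the highest without ING2 siRNA replicate 3. MFF was 0.0245 after quantile normalization, and YME1L1 was 0.0720 with the mean of all its probe sets. Apart from that mean, which adds 17 dim probe sets, the cause of these changes was not tested. MFN1, not called on its brightest probe set, passed in 9 alternatives (limma adjusted p 0.0151 to 0.0465), among them median centring, array weights and the replicate block (0.0321), and OMA1 passed in 4 (0.0232 to 0.0474): the mean of probe sets, array weights, the replicate block (0.0232) and without control replicate 1. Dim probe sets below the median intensity have no value once such probe sets are left out. The number of arrays and the level of dim probe sets above background, which the table does not give, limit these values.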
